A study of Mus musculus with 8 samples.

Results

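Toll-like receptors and the proteins that work with them were followed as a group of 10 genes, taken by symbol from the 22869 gene symbols of the deposited count table. The set holds the receptors Tlr1, Tlr2, Tlr3, Tlr4, Tlr7 and Tlr9, the accessory proteins Cd14 and Ly86, the adaptor Myd88 and the inhibitor Nfkbia. Where a gene had several transcript rows, the row with the highest mean count was to stand for it, but each of the 10 had a single row. All 10 were above the low-count cutoff (0.165 CPM, read counts relative to the size of the library) in all 8 libraries, so none entered the test through 1 group alone.

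Toll-like receptors recognise microbial molecules and products of damaged cells. In the brain they are known chiefly from microglia, and some are also expressed by astrocytes and other cells. Those at the cell surface read lipids and proteins, while those in endosomes read nucleic acids. Except for Tlr3, which uses another adaptor, they signal through the adaptor Myd88 to the transcription factor NF-kB, which Nfkbia (IkB-alpha) holds in the cytoplasm and which in turn switches on the Nfkbia gene. In models of amyloid deposition, Tlr2, Tlr4 and Cd14 are known as receptors through which microglia respond to aggregated amyloid.

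The samples were 4 cortex libraries from APP/PS1 mice given bexarotene, a drug that activates retinoid X receptors, and 4 from APP/PS1 mice that had glycerol (0.2 mg/kg) instead, called vehicle below. All 8 came from the C57BL/6 strain and all carried the APP/PS1 transgenes, which lead to amyloid plaques. The comparison therefore shows bexarotene against vehicle in transgenic cortex only. Not given in the sources used here are the bexarotene dose, how long it was given, the promoters of the transgenes, whether a library held 1 animal, and the sex or age of the animals. The p-values thus measure the spread between these libraries, which may be technical.

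The libraries had 60106192 to 76542067 counts under bexarotene and 42413825 to 60955403 under vehicle, summed over all rows. Replicates 1 and 3 of both groups were separated from replicates 2 and 4 by the leading principal component (36.5% of the variance), so differences are also given within each of these pairs of replicates. Each bexarotene library had RNA of both Xist (84.7 to 218 CPM) and Y-linked genes (9.81 to 88.5 CPM in sum). Among vehicle libraries, Xist was high in replicates 1 and 3 only (248 and 307 CPM) and Y-linked genes in replicates 2 and 4 only (134 and 141 CPM). Whether a bexarotene library held RNA of more than 1 animal, or of more than 1 library, cannot be told from these values, so it is not known whether the 4 bexarotene libraries are 4 separate animals. Cortical markers were present in every library, where 7 genes summed to 234 to 455 CPM with bexarotene and 296 to 480 CPM with vehicle. Markers of other tissue were present too. Those of striatum summed to 208 to 973 CPM under bexarotene and 167 to 490 CPM under vehicle, and those of choroid plexus to 74.9 to 1453 CPM under bexarotene and 15.7 to 40.6 CPM under vehicle. Liver markers, which share Ttr with those of choroid plexus, summed to 97.5 to 1516 CPM under bexarotene and 6.91 to 154 CPM under vehicle. Blood markers summed to 4.59 to 37.5 CPM under bexarotene and 7.71 to 16.8 CPM under vehicle. The part of these other tissues in the results below was not tested.

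The promoters of 3 of the genes are shown first, because the readout of Toll-like receptor signalling runs through NF-kB sites of this kind. They are Tlr2, the receptor with the most matches, Nfkbia, the feedback inhibitor, and Ly86, the gene whose groups separated. Each window runs from 250 bases before the gene's start to 50 bases after it, 5′ to 3′ along the gene, from RefSeq on GRCm38.p6. Capitals mark matches to the NF-kB consensus on either strand.
Tlr2, chr3:83841559-83841858, strand -: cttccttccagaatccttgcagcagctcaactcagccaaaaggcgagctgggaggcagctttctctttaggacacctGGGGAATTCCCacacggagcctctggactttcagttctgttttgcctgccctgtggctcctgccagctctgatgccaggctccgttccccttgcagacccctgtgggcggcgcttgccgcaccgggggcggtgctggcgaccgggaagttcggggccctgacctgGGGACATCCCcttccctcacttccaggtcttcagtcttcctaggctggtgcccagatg
Nfkbia, chr12:55492598-55492897, strand -: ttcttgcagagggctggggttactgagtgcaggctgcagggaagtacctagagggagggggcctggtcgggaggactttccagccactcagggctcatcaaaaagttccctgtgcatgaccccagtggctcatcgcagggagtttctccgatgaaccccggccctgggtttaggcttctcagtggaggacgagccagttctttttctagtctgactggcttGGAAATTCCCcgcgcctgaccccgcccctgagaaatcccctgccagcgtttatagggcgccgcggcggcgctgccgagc
Ly86, chr13:37345095-37345394, strand +: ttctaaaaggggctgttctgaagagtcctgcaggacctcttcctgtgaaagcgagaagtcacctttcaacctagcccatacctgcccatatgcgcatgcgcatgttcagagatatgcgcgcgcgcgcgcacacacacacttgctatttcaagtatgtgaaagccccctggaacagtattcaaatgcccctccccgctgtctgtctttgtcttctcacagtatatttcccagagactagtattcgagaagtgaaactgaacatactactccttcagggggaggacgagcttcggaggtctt
In Tlr2 the capitals hold a pair of overlapping matches that begin at positions -173 and -172 and a further match at -8, counted from the gene's start. The matches at -172 and -8 read as the consensus on both strands. In Nfkbia 1 match begins at -29. The Ly86 window held none. Windows were available for 7 of the 10 genes (Tlr1, Tlr2, Tlr3, Tlr9, Ly86, Myd88 and Nfkbia, with 8 windows in all). The consensus was found in 3 of these windows, those of Tlr2, Tlr3 and Nfkbia, and in 8.46% of the 32851 windows of all genes. The motif GAGGAA, the core bound by the myeloid factor PU.1, was found on either strand in 2 of the 8 windows (Tlr1 and Tlr9), against 28.3% of all windows. The motif AGGTCA, which receptors that pair with retinoid X receptors can bind, was found on either strand in 2 (Tlr2 and Tlr9), against 16.3%. It overlapped no NF-kB match. These matches describe letters in a window and not binding.

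The 10 genes covered a wide range of levels. Per kilobase of transcript, over the 8 libraries, Nfkbia (19.3 ± 2.36 CPM per kilobase, SD) and Ly86 (15.9 ± 3.72) were the most abundant, and their ranges overlapped. Cd14 came next at 3.50 ± 1.16 CPM per kilobase, and every library had more Ly86 than Cd14. Myd88 (2.36 ± 0.248) and Tlr3 (2.16 ± 0.296) followed with overlapping ranges. The remaining receptors were ordered Tlr7 (1.37 ± 0.364), Tlr2 (0.811 ± 0.306), Tlr9 (0.463 ± 0.197), Tlr4 (0.387 ± 0.117) and Tlr1 (0.230 ± 0.0980 CPM per kilobase). Neighbours in this order overlapped in range except Ly86 and Cd14, although Tlr3 exceeded Tlr7, and Tlr7 exceeded Tlr2, in 8 of 8 libraries. The lowest count of any of the 10 genes was 13 reads, for Tlr1 in vehicle replicate 1.

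None of the 10 genes passed the test of bexarotene against vehicle. At an adjusted p below 0.05 in edgeR's quasi-likelihood test, 0 of 10 were called, against 0.00622% of the 16069 genes tested, which is 1 gene, the ribosomal protein gene Rplp2 (log2 fold change 1.62, quasi-likelihood adjusted p = 0.00307). DESeq2 called 0 of the 9 genes to which it gave an adjusted p (Tlr1 had none), against 0.647% of all 16069 genes, any without an adjusted p included. The exact test of edgeR called 0 of the 10, against 0.230% of all genes. At an unadjusted p below 0.05, 1 of the 10 genes (Ly86) passed, against 8.77% of all genes. The log2 fold change was above 0 in 8 of the 10 genes, against 50.2% of all genes, with Tlr4 and Nfkbia below 0. The signs of Tlr3, Tlr4 and Nfkbia changed in some alternative fits, and that of Nfkbia was positive with upper quartile scaling and with no composition factor. The median log2 fold change of the 10 genes was 0.27, beside 0.00 over all genes. The plot of levels by library shows the overlap of the groups gene by gene.

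**Figure D1:**
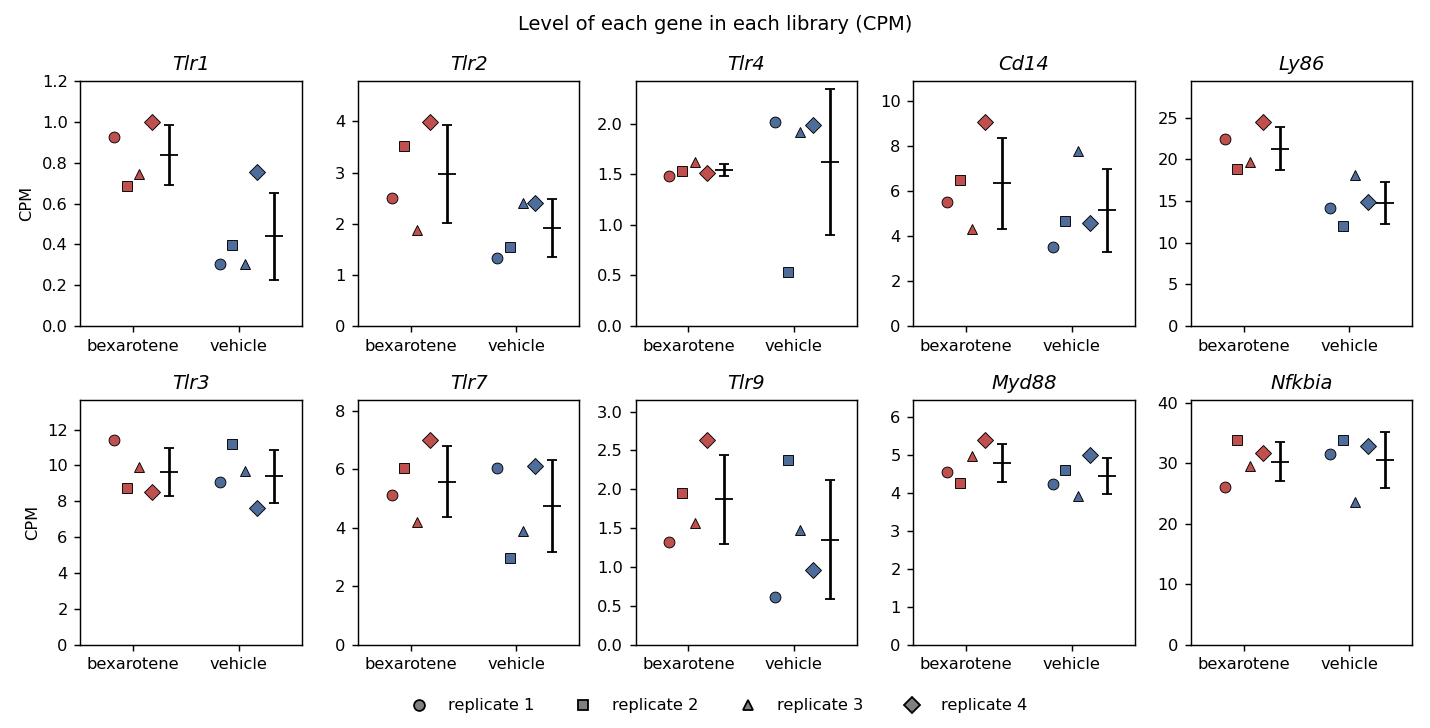
Level of each of the 10 genes in each library, in CPM on an axis that starts at 0, with bexarotene left of vehicle. Symbols mark replicates 1 to 4 and the bar is the mean ± SD (n = 4). The groups separated for Ly86 and overlapped for the other 9 genes.

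Among the surface receptors, Tlr2 and Tlr1 form a heterodimer that recognises triacylated bacterial lipopeptides. Tlr2 was at 2.51, 3.52, 1.87 and 3.99 CPM with bexarotene, replicates 1 to 4 in turn, and at 1.32, 1.55, 2.40 and 2.40 CPM with vehicle. Bexarotene replicates 1, 2 and 4 lay above all vehicle libraries, and bexarotene replicate 3 lay inside the vehicle range. The means were 2.97 ± 0.961 CPM with bexarotene and 1.92 ± 0.565 CPM with vehicle (SD, n = 4), with a log2 fold change of 0.63 ± 0.31 (SE, 95% interval -0.05 to 1.31) and a quasi-likelihood adjusted p = 0.609. A permutation test (exact, two-sided) had p = 0.114. Bexarotene minus vehicle in mean log2 CPM was 0.28 in replicates 1 and 3 and 0.95 in replicates 2 and 4.

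Tlr1 had the largest log2 fold change of the 10 genes and the lowest level. It was at 0.926, 0.685, 0.745 and 1.0 CPM with bexarotene, replicates 1 to 4 in turn, and at 0.306, 0.396, 0.305 and 0.754 CPM with vehicle. Vehicle replicate 4 lay within the bexarotene range, and the other 3 vehicle libraries lay below it. EdgeR gave a log2 fold change of 0.92 ± 0.43 (SE, 95% interval -0.04 to 1.89), with a quasi-likelihood adjusted p = 0.594 and a permutation p (exact, two-sided) of 0.0857. Counts were 51 to 75 reads under bexarotene and 13 to 45 under vehicle, so single reads weigh on these values. Within replicates 1 and 3, mean log2 CPM differed by 1.35, bexarotene minus vehicle, and within replicates 2 and 4 by 0.57.

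Tlr4, the receptor for bacterial lipopolysaccharide, was at 1.48, 1.53, 1.62 and 1.51 CPM with bexarotene, replicates 1 to 4 in turn, and at 2.02, 0.534, 1.92 and 1.99 CPM with vehicle. The 4 bexarotene libraries were close to each other, and 3 of the vehicle libraries lay above them while vehicle replicate 2 lay far below. The fitted log2 fold change was -0.07 ± 0.38 (SE, 95% interval -0.93 to 0.78, quasi-likelihood adjusted p = 0.982). Bexarotene minus vehicle in mean log2 CPM was 0.10, of the opposite sign, with a permutation p (exact, two-sided) of 1.0. Without vehicle replicate 2 the log2 fold change was -0.36. Replicates 1 and 3 alone gave -0.34 for bexarotene minus vehicle in mean log2 CPM, and replicates 2 and 4, which include the low library, gave 0.54.

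Cd14 hands lipopolysaccharide to Tlr4 and also serves Tlr2. It was at 5.51, 6.50, 4.31 and 9.06 CPM with bexarotene, replicates 1 to 4 in turn, and at 3.50, 4.65, 7.78 and 4.57 CPM with vehicle. The highest value of each group stood apart from the rest of that group, and the ranges overlapped widely. The log2 fold change was 0.31 ± 0.28 (SE, 95% interval -0.33 to 0.94, quasi-likelihood adjusted p = 0.813), and a permutation test (exact, two-sided) had p = 0.371. It was 0.58 without vehicle replicate 3 and 0.09 without bexarotene replicate 4. Taken within replicates 1 and 3 the difference in mean log2 CPM, bexarotene minus vehicle, was -0.10, and within replicates 2 and 4 it was 0.73.

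Ly86 (MD-1) is a secreted protein that binds Cd180, a Toll-like receptor relative on B cells and myeloid cells. It was at 22.4, 18.8, 19.7 and 24.5 CPM with bexarotene, replicates 1 to 4 in turn, and at 14.2, 12, 18.1 and 14.9 CPM with vehicle. Each bexarotene library exceeded each vehicle library, though the lowest bexarotene library was close to vehicle replicate 3. The groups did not overlap, with bexarotene higher, in 1 of the 10 genes, against 3.61% of all genes tested. The means were 21.3 ± 2.60 CPM with bexarotene and 14.8 ± 2.52 CPM with vehicle (SD, n = 4), a fitted ratio of 1.44. EdgeR gave a log2 fold change of 0.53 ± 0.14 (SE, 95% interval 0.22 to 0.84), with an unadjusted p of 0.00342 and a quasi-likelihood adjusted p = 0.387, so it did not pass over all genes. A permutation test (exact, two-sided) had p = 0.0286, the smallest that 4 against 4 libraries can give. Replicates 1 and 3 alone gave 0.39 for bexarotene minus vehicle in mean log2 CPM, and replicates 2 and 4 gave 0.68. Over all alternatives the log2 fold change of Ly86 ranged from 0.44 to 0.64 and its adjusted p from 0.0741, in DESeq2, to 1.0, without bexarotene replicate 1. Fold changes moved with transcript length over the genes sorted into length classes, which are fewer than all genes tested. The median was 0.15 for 1735 genes of 700 to 1500 nt, where Ly86 (1134 nt) falls. It was -0.13 for 1683 genes of 6000 nt or more. With a length and GC offset, Ly86 had a log2 fold change of 0.45 and a quasi-likelihood adjusted p = 0.818.

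Its partner Cd180 was at 5.01, 4.15, 4.21 and 5.52 CPM with bexarotene, replicates 1 to 4 in turn, and at 2.45, 4.41, 4.36 and 3.28 CPM with vehicle. These ranges overlapped, and the log2 fold change was 0.38 ± 0.22 (SE, quasi-likelihood adjusted p = 0.674).

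**Figure D2:**
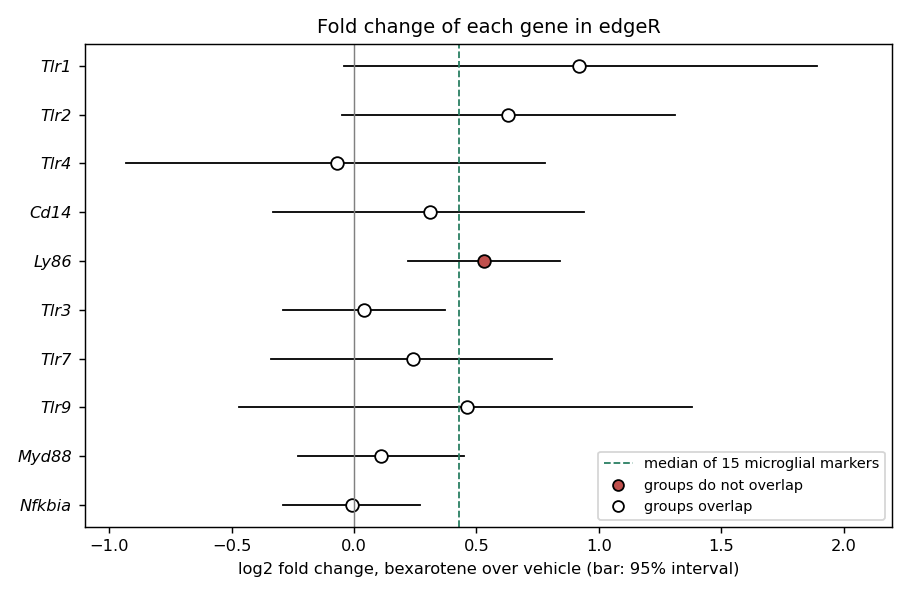
Log2 fold change of bexarotene over vehicle for each of the 10 genes, with the 95% interval from edgeR's quasi-likelihood fit. The filled point marks the gene whose groups did not overlap (Ly86, 0.53), and the dashed line is the median of the 15 microglial markers (0.43). The intervals of the other 9 genes include 0.

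The endosomal receptors overlapped between the groups. Tlr3, the receptor for double-stranded RNA, which astrocytes also express, was at 11.4, 8.72, 9.93 and 8.51 CPM with bexarotene, replicates 1 to 4 in turn, and at 9.08, 11.2, 9.68 and 7.62 CPM with vehicle. The groups covered almost the same range. The fitted log2 fold change was 0.04 ± 0.15 (SE, 95% interval -0.29 to 0.37, quasi-likelihood adjusted p = 0.973), with a permutation p (exact, two-sided) of 0.800. Within replicates 1 and 3, mean log2 CPM differed by 0.18, bexarotene minus vehicle, and within replicates 2 and 4 by -0.10.

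Tlr7, an X-linked receptor for single-stranded RNA, was at 5.12, 6.03, 4.19 and 6.99 CPM with bexarotene, replicates 1 to 4 in turn, and at 6.04, 2.96, 3.87 and 6.11 CPM with vehicle. Vehicle replicates 1 and 4 were high and vehicle replicates 2 and 3 low, a division that is not the one by Xist and Y-linked genes. The log2 fold change was 0.24 ± 0.26 (SE, 95% interval -0.34 to 0.81, quasi-likelihood adjusted p = 0.855), with a permutation p (exact, two-sided) of 0.429. It was 0.28 with the Y-linked level as a covariate and 0.07 without vehicle replicate 2. Bexarotene minus vehicle in mean log2 CPM was -0.06 in replicates 1 and 3 and 0.61 in replicates 2 and 4.

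Tlr9, which recognises unmethylated CpG DNA, was at 1.32, 1.95, 1.56 and 2.63 CPM with bexarotene, replicates 1 to 4 in turn, and at 0.611, 2.38, 1.47 and 0.955 CPM with vehicle. Vehicle replicate 2 was above 3 of the 4 bexarotene libraries. EdgeR gave a log2 fold change of 0.46 ± 0.42 (SE, 95% interval -0.47 to 1.38, quasi-likelihood adjusted p = 0.809), with a permutation p (exact, two-sided) of 0.286. It was 0.88 without vehicle replicate 2 and 0.22 without vehicle replicate 1. Replicates 1 and 3 alone gave 0.58 for bexarotene minus vehicle in mean log2 CPM, and replicates 2 and 4 gave 0.57.

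Downstream of the receptors, Myd88 and Nfkbia, together with Tlr3, varied least between libraries. Myd88 was at 4.55, 4.26, 4.99 and 5.39 CPM with bexarotene, replicates 1 to 4 in turn, and at 4.23, 4.62, 3.93 and 5.01 CPM with vehicle. The groups overlapped, with a log2 fold change of 0.11 ± 0.15 (SE, 95% interval -0.23 to 0.45, quasi-likelihood adjusted p = 0.894) and a permutation p (exact, two-sided) of 0.400. Nfkbia was at 26.1, 33.8, 29.6 and 31.7 CPM with bexarotene, replicates 1 to 4 in turn, and at 31.6, 33.8, 23.6 and 32.9 CPM with vehicle. The means were 30.3 ± 3.26 CPM with bexarotene and 30.5 ± 4.65 CPM with vehicle (SD, n = 4). The log2 fold change of Nfkbia was -0.01 ± 0.13 (SE, 95% interval -0.29 to 0.27, quasi-likelihood adjusted p = 0.995), and its sign changed between settings. Bexarotene minus vehicle in mean log2 CPM within replicates 1 and 3 was 0.22 for Myd88 and 0.02 for Nfkbia, and within replicates 2 and 4 it was -0.01 for Myd88 and -0.03 for Nfkbia.

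Microglial markers moved in the same direction as Ly86. All 15 had a positive log2 fold change (median 0.43), and 13 had an unadjusted p below 0.05 with bexarotene higher, against 4.88% of all genes, while 0 passed the adjusted threshold in edgeR's quasi-likelihood test. None was at 0 in all libraries. Taken singly, the groups did not overlap, with bexarotene higher, in 6 of the 15, against 3.61% of all genes. Their summed level was 813 to 1089 CPM under bexarotene and 614 to 787 CPM under vehicle, without overlap. That separation depended on C1qa, C1qb and C1qc (log2 fold change 0.67, 0.72 and 0.53). Without these genes, vehicle replicate 3 summed higher than bexarotene replicate 3. In bulk cortex, more cells of a type and more RNA per cell cannot be told apart. Per 1000 CPM of all 15 markers, Ly86 was at 23.4, 23.1, 24.0 and 22.5 in bexarotene replicates 1 to 4. It was at 23.1, 18.9, 23.0 and 21.7 in vehicle replicates 1 to 4. On this scale the groups overlapped, and the log2 ratio of the means was 0.10. The SD of log2 Ly86 over the 8 libraries was 0.11 per microglial marker and 0.35 in CPM.

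The other genes were compared in the same way. Division by the markers adds their own spread, which weighs most on genes that vary little in CPM. The comparison therefore does not rank how closely a gene followed the markers. The SD of log2 values over the 8 libraries was smaller per microglial marker than in CPM for Cd14 (0.32 and 0.46), Tlr2 (0.36 and 0.55), Tlr1 (0.53 and 0.70) and Tlr9 (0.59 and 0.69). It was larger per microglial marker for Nfkbia (0.39 and 0.19), Tlr3 (0.34 and 0.20) and Myd88 (0.26 and 0.15), and nearly equal for Tlr7 (0.41 and 0.42) and Tlr4 (0.63 and 0.62). The summed markers were themselves higher under bexarotene (log2 ratio of the means 0.44), so a gene unchanged in CPM comes out lower on this scale. Per microglial marker, 4 of the 10 genes had a higher mean under bexarotene and 6 a lower one, and the groups overlapped in all 10. The same shares over all genes were not taken, so these counts are no result about the 10 genes. The log2 ratio of the means was 0.48 for Tlr1 and 0.21 for Tlr2, and -0.48 for Tlr4, -0.45 for Nfkbia, -0.39 for Tlr3 and -0.33 for Myd88. These ratios are descriptions without a test, and the part of the microglial markers in the results was not tested.

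**Figure D3:**
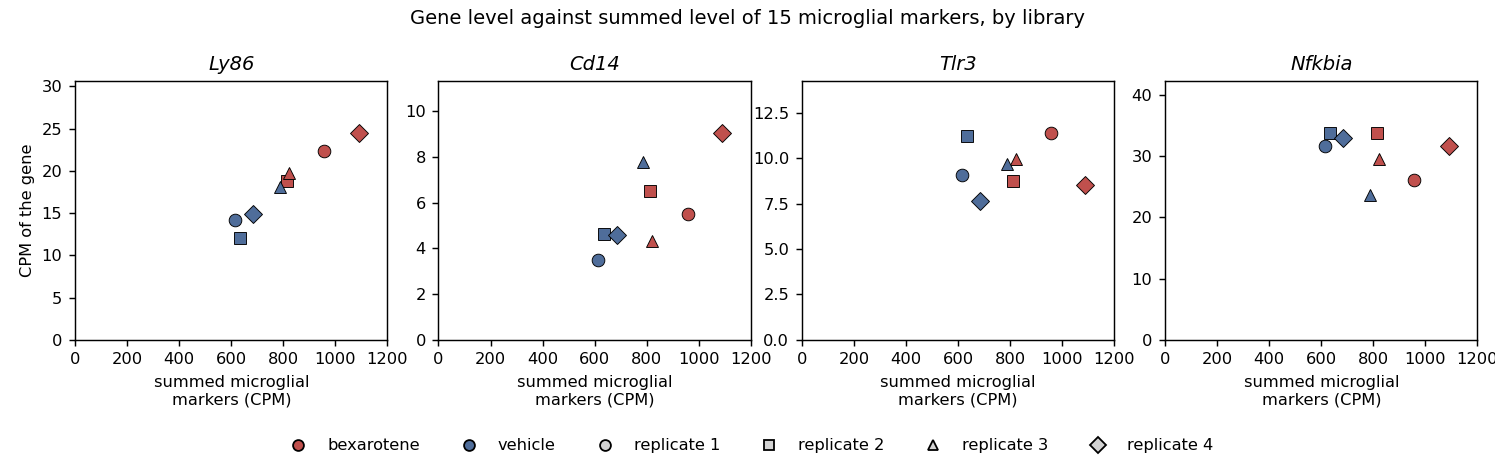
CPM of Ly86, Cd14, Tlr3 and Nfkbia against the summed CPM of 15 microglial markers in the 8 libraries, with both axes from 0. Red marks bexarotene, blue marks vehicle and the symbols mark the replicates. Ly86 lies close to a line through the origin, at 18.9 to 24.0 CPM per 1000 CPM of markers, while Nfkbia has no such course.

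Markers of other immune cells were low. Those of neutrophils and monocytes (7 of 8 in the table) summed to 0.894 to 3.88 CPM under bexarotene and 0.914 to 4.91 CPM under vehicle. Those of lymphocytes (8 of 8) summed to 0.927 to 7.21 CPM under bexarotene and 1.19 to 2.49 CPM under vehicle, highest in bexarotene replicates 1 and 3. Most of this sum in each bexarotene library was Cd4 (0.887 to 6.40 CPM). Of the 8 lymphocyte markers, Cd4 was the only 1 to pass the low-count filter. Whether bexarotene replicates 1 and 3 held more lymphocytes was not tested. Markers of perivascular macrophages (5 of 5) summed to 4.51 to 8.35 CPM under bexarotene and 2.83 to 12.1 CPM under vehicle. Ly86 exceeded the sum of each of these lists in all 8 libraries, most narrowly in vehicle replicate 1, where it was at 14.2 CPM beside 12.1 CPM of macrophage markers. Such sums depend on the genes listed, and the cell source of Ly86 RNA was not tested.

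The rest of the pathway was described through 4 lists with 69 genes, of which 58 were tested. None was called at an adjusted p of 0.05 by edgeR's quasi-likelihood or exact test or by DESeq2. At an unadjusted p below 0.05, 7 were higher and 1 lower under bexarotene, against 4.88% and 3.89% of all genes. The groups did not overlap in 1 of the 58 genes, Tab3, which was lower under bexarotene, against 2.16% of all genes in that direction. The median log2 fold change was 0.11, beside 0.00 over all genes.

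Among the other receptors and co-receptors, 11 of 13 were tested, 10 with a log2 fold change above 0 and 1 below (median 0.14). Unc93b1, which carries Tlr3, Tlr7 and Tlr9 to endosomes, was at 25.2, 18.3, 21.5 and 25.5 CPM with bexarotene, replicates 1 to 4 in turn, and at 16.6, 17.9, 16.7 and 21.5 CPM with vehicle. Vehicle replicate 4 reached into the bexarotene range, and the log2 fold change was 0.32 ± 0.13 (SE, quasi-likelihood adjusted p = 0.562). Lbp, the serum protein that delivers lipopolysaccharide to Cd14, had the largest positive value of the list (0.75 ± 0.48, quasi-likelihood adjusted p = 0.721). It was at 7.39 CPM in bexarotene replicate 2 and at 1.82 to 2.29 CPM in the other 3 bexarotene libraries, against 1.34 to 2.96 CPM under vehicle. Bexarotene replicate 2 had the most RNA of both choroid plexus markers (1453 CPM) and liver markers (1516 CPM). Both lists hold Ttr, and their part in the Lbp value was not tested. Cd36, a scavenger receptor that assists Tlr2, had a log2 fold change of -0.13 ± 0.89 (quasi-likelihood adjusted p = 0.988), with 3.24 and 3.59 CPM in bexarotene replicates 1 and 3 and 0.390 and 0.587 CPM in bexarotene replicates 2 and 4. The vehicle libraries divided likewise, with 3.90 and 3.35 CPM of Cd36 in replicates 1 and 3 and 0.896 and 0.419 CPM in replicates 2 and 4. Tlr8 and Tlr11 were not tested: Tlr8 had 5, 0, 8 and 5 reads with bexarotene and 13, 0, 0 and 0 with vehicle, replicates 1 to 4 in turn, and Tlr11 had at most 5 reads in a library.

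Of the 22 adaptors and proximal kinases, 9 had a log2 fold change above 0 and 13 below (median -0.08). The median was -0.01 without vehicle replicate 1 and -0.02 with a length and GC offset and the replicate block. Pik3ap1 (BCAP), which links Toll-like receptors to phosphoinositide 3-kinase, was at 4.90, 2.94, 3.96 and 4.79 CPM with bexarotene, replicates 1 to 4 in turn, and at 2.63, 2.64, 1.97 and 3.17 CPM with vehicle. Bexarotene replicate 2 lay inside the vehicle range, and the log2 fold change was 0.67 ± 0.22 (SE, quasi-likelihood adjusted p = 0.477). Tab3, an X-linked gene for a binding partner of the kinase TAK1, was at 11.6 to 14.6 CPM in bexarotene libraries and 15.3 to 19.0 CPM in vehicle libraries, with a log2 fold change of -0.32 ± 0.11 and a quasi-likelihood adjusted p = 0.494. Its exact two-sided permutation p was 0.0286, and its transcript of 6364 nt is in the longest class above.

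Of the 15 NF-kB and interferon regulatory factors and their inhibitors, 13 had a log2 fold change above 0 and 2 below (median 0.20). Irf7, the factor that drives interferon genes after Tlr7 and Tlr9, was at 9.10, 3.22, 9.11 and 4.26 CPM with bexarotene, replicates 1 to 4 in turn, and at 1.76, 2.0, 2.92 and 3.62 CPM with vehicle. Bexarotene replicates 1 and 3 stood highest, and bexarotene minus vehicle was 1.99 in mean log2 CPM in replicates 1 and 3 and 0.46 in replicates 2 and 4. Its log2 fold change was 1.31 ± 0.38 (SE, quasi-likelihood adjusted p = 0.431). Bexarotene replicates 1 and 3 also had the most marker RNA of striatum (973 and 713 CPM), blood (37.5 and 24.5 CPM) and lymphocytes (7.21 and 4.73 CPM). The part of each in the result was not tested. Irf5, another factor that acts with Myd88, had a log2 fold change of 0.46 ± 0.18 (quasi-likelihood adjusted p = 0.556), and Nfkbie, a further inhibitor of NF-kB, -0.02 ± 0.34 (quasi-likelihood adjusted p = 0.995). The other gene below 0 was Rel, an NF-kB subunit, with the lowest value of the list (-0.69 ± 0.55, quasi-likelihood adjusted p = 0.782). It was at 0.443 to 0.907 CPM with bexarotene and 0.251 to 1.84 CPM with vehicle.

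Among NF-kB target cytokines, chemokines and enzymes, 10 of 19 were tested, 6 with a log2 fold change above 0 and 4 below (median 0.33). Leaving out bexarotene replicate 4 gave a median of 0.13, and leaving out vehicle replicate 1 gave 0.17. The genes below 0 were Ptgs2, Ccl4 (-0.35), Nos2 (-0.23) and Sod2 (-0.16). The other 9, which are Tnf, Il1b, Il6, Il10, Il12b, Ccl2, Cxcl1, Cxcl2 and Sele, did not reach the low-count filter and were at 0.292 CPM or less under bexarotene and 0.871 CPM or less under vehicle. Vcam1, an adhesion molecule, averaged 22.4 ± 2.45 CPM with bexarotene and 18.5 ± 1.86 CPM with vehicle (SD, n = 4), a log2 fold change of 0.28 ± 0.11 (SE, quasi-likelihood adjusted p = 0.555). Cxcl10, a chemokine induced by interferon, reached 3.19 CPM in bexarotene replicate 1 and 2.80 CPM in bexarotene replicate 3, but 0.403 and 0.640 CPM in the other 2 bexarotene libraries and 0.218 to 0.896 CPM under vehicle. Its log2 fold change was 1.76 ± 0.70 (SE, quasi-likelihood adjusted p = 0.556). Ptgs2 (cyclooxygenase), also an activity-regulated gene in neurons, had the largest negative value (-0.47 ± 0.25, quasi-likelihood adjusted p = 0.645), with 7.52 to 15 CPM in bexarotene libraries and 11.9 to 22.5 CPM in vehicle libraries.

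**Figure D4:**
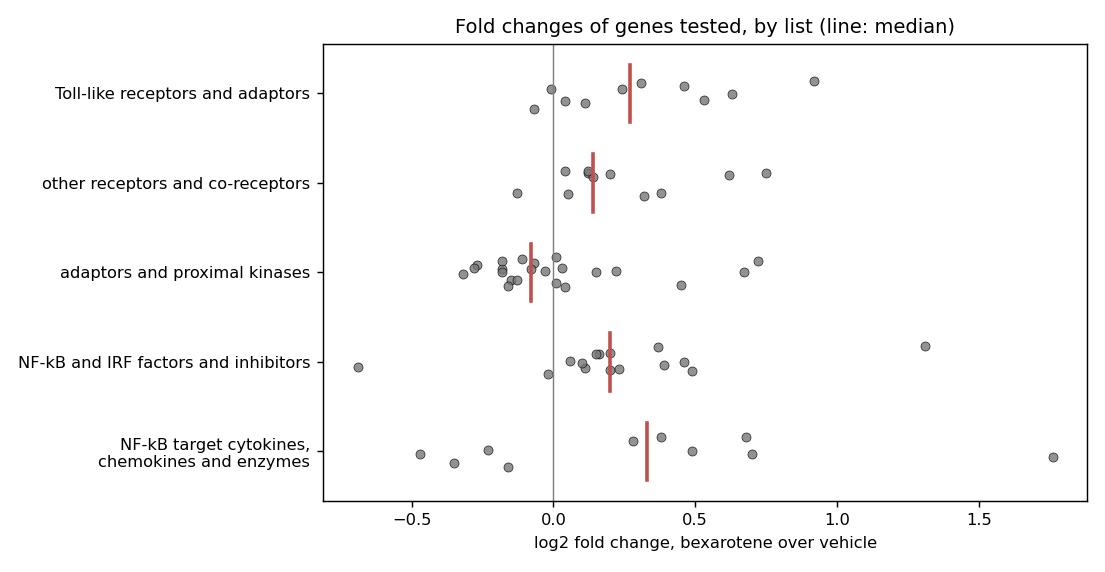
Log2 fold change of bexarotene over vehicle for each tested gene of the 10 genes and of the 4 pathway lists, 1 point per gene (scattered up and down for clarity), with the median of each list as a red line. The medians are 0.27, 0.14, -0.08, 0.20 and 0.33 from top to bottom. None of the points passed the adjusted threshold.

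The genes whose profiles over the 8 libraries lay nearest to each of the 9 genes other than Tlr1, which averaged under 1 CPM, were taken by the root mean square distance between centred log2 CPM values, among 13974 other genes with a mean of at least 1 CPM. Those nearest to Ly86 were Gpr34, a receptor of microglia and 1 of the 15 markers (distance 0.0909), and Lyl1, a haematopoietic transcription factor (0.0922). Those nearest to Cd14 were Ccl6, a chemokine of myeloid cells (0.136), and Myo1f, a myosin of immune cells (0.180). Those nearest to Tlr2 were Lat2 (0.186) and Arl11 (0.216), and those nearest to Tlr9 were C5ar1, the receptor for complement C5a (0.222), and BC021891 (0.268). For Nfkbia they were Zfyve26 (0.0467) and Clcn4-2 (0.0789), for Myd88 Wdr24 (0.0557) and Ccnl1 (0.0631), and for Tlr3 Ebpl (0.0660) and Lyar (0.0670). For Tlr4 they were Thsd4 (0.165) and Kcnq1ot1 (0.170), and for Tlr7 Shroom3 (0.130) and Pcdhb21 (0.155). Profiles that vary little give small distances, so the distances compare within a gene and not between genes.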

How the data were processed

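The deposited file holds raw read counts per RefSeq transcript that the authors made, 28644 rows in all, per the file headers and the whole-number values. Libraries were made from RNA with a stranded mRNA kit, per the labels. The submitters' processing notes name the build mm9 and edgeR. Not given in the sources used here are the aligner, the counter and whether it used strand, so a gene and an overlapping antisense gene may share reads. Columns of values left out numbered 0.

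From these counts, edgeR 4.0.16 (R 4.3.3) fitted group alone by the robust quasi-likelihood method, after its default filter on low counts and TMM scaling. Its p-values were adjusted by Benjamini-Hochberg across 21285 rows, and 0.05 was the threshold. Log2 fold changes are bexarotene over vehicle, with SE and 95% interval derived from the F statistic. CPM are relative to the tested rows' total times the TMM factor. Exact permutation tests used log2 CPM (prior count 2) over 70 regroupings. DESeq2 1.42.0 was an alternative. Transcript lengths and GC came from GENCODE vM21 (97.0% of rows). The script was tested on simulated data.

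The titles number replicates 1 to 4 in both groups. Same-numbered libraries deviated from their group means with correlations of 0.43, 0.28, 0.14 and 0.16, all above 0.1, so a blocked fit was run, although pairs of other numbers reached 0.44. The members and gene lists were chosen with earlier results of these data known. Named were all 10 members. Each list gave its 2 genes of smallest p and the largest change in each direction above 1 CPM. Each member above 1 CPM gave its 2 nearest profiles. Genes named to account for those below 0 in a list (Rel, Ccl4, Nos2 and Sod2 among them) were named after their values were seen. So were the untested genes and Cd180 as the partner of Ly86.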

Additional observations from a re-analysis of the deposited data

Results flagged for a closer look

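Tlr4 was at 1.48 to 1.62 CPM under bexarotene and at 1.92 to 2.02 CPM in vehicle replicates 1, 3 and 4, while vehicle replicate 2 stood apart at 0.534 CPM (31 reads). Its gap to the next library was 0.930 of the group's range, above the 95% critical value of Dixon's test for 4 samples. Both groups of each of the 10 genes were examined, 20 in all, and chance gives about 1 such value in 20.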

How the results depend on the processing

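The number of the 10 genes called was 0 under all 21 alternatives, the replicate block, both other tests and each left-out library included. Tlr1 was not tested with the filter of 1 CPM in 4 libraries and had no adjusted p in DESeq2. The number of genes called over the whole table was 1 and became 104 in DESeq2, 37 in edgeR's exact test and 3 with replicates 1 and 3 against 2 and 4 as a term. It was 1 with the replicate block and 1 to 2 when a library was left out, 2 without bexarotene replicate 2. The log2 fold changes kept their sign for 7 of the 10 genes under every alternative that tested them. That of Tlr4 (-0.07) was 0.07 with the replicate block, 0.11 with the Y-linked covariate, 0.10 with the length and GC offset and 0.22 with that offset and the replicate block. Over left-out libraries it was -0.36 to 0.05. That of Nfkbia (-0.01) was 0.02 with upper quartile factors and 0.02 with no composition factor, and -0.11 to 0.06 over left-out libraries. That of Tlr3 (0.04) was -0.05 to 0.14 over left-out libraries. The difference in mean log2 CPM of Nfkbia was 0.03 with no composition factor. The causes were not tested. The replicate block changed no call among the 10 genes. Other rows of the same gene could not be tried, since each gene has 1. Depth limits Tlr1, Tlr4 and Tlr9 most, whose lowest counts were 13, 31 and 26 reads.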
